A study of Mus musculus with 38 samples.

Results

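Primitive endoderm cell-like cells (PrECLCs) that appeared without added BMP4 are described here. They were the 142 cells of the BMP4- scRNA-seq sample that the authors had annotated ParE, out of 8685 cells of that sample and 20020 cells of both scRNA-seq samples. The label can also be read as parietal endoderm. It was read as PrECLCs, the name used in the paper, because the cells carried Gata4, Sox17, Pth1r, Dab2 and Lama1. These genes alone do not settle the reading, since Pth1r is also on the list of parietal genes used below. The paper reports that its PrECLCs were closer to primitive endoderm of embryos than to parietal or visceral endoderm. That comparison with embryos was not repeated here. The other cells of the sample were 6211 intermediate, 1825 pluripotent and 507 endothelial cells.

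The cells came from mouse embryonic fibroblasts (MEFs) of E13.5 embryos of either sex, from crosses of OG2 mice, which carry a GFP reporter of Oct4, with 129S4/SvJaeJ mice. Retroviruses delivered Jdp2, Glis1, Esrrb and Sall4 (JGES), and the cells were grown in iCD3 reprogramming medium for 7 days. The BMP4- sample received no BMP4 and the BMP4+ sample received 10 ng/ml. Bulk RNA-seq of JGES cells covered day 0 and days 1, 3, 5 and 7, and every condition of either assay had 1 sample. Conditions were therefore not tested against each other and p-values are absent. The intervals of 95% given below are exact and cover counting error of UMIs (unique molecular identifiers) or cells within 1 sample, not the spread between cultures.

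Primitive endoderm is the extraembryonic epithelium that lines the blastocoel side of the inner cell mass. It is specified apart from the epiblast by the factors GATA6, GATA4 and SOX17, and it later gives rise to visceral and parietal endoderm. The lineage is known for the basement membrane it lays down and for the uptake of maternal proteins and nutrients by the receptors cubilin and megalin. BMP4 is a secreted ligand whose receptors signal through SMAD proteins and induce the Id genes.

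The 2 scRNA-seq libraries differed in ways shared by their cell types. The BMP4- PrECLCs held a median of 11562 UMIs per cell (5788 to 32374) and a median of 2659.5 genes, beside 11892 UMIs in intermediate cells of the same sample and 23772.5 UMIs in the BMP4+ PrECLCs. Ribosomal protein genes took a median of 44.1% of the UMIs of BMP4- PrECLCs and 24.1% in BMP4+ PrECLCs, and intermediate cells showed the same gap, with 44.7% and 26.6%. Single genes also stood apart in every type that both samples contain. Mitochondrial mt-Co3 was at 9073 CPM (the UMI count scaled to the total of the cell type) in BMP4- and 40.3 CPM in BMP4+ PrECLCs, and at 10389 and 54.2 CPM in the intermediate cells. The samples shared 2 cell barcodes, and no BMP4- PrECLC carried 1 of them. No doublet caller was run.

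PrECLCs were 1.64% of the BMP4- cells (interval 1.38 to 1.92%) and 20.9% of the BMP4+ cells (20.2 to 21.7%). Most of the BMP4- PrECLCs held UMIs of several of the 5 marker genes. At least 3 of the 5 had a UMI in 113 cells (79.6%, 72.0 to 85.9%), all 5 had one in 32 cells, and none had one in 2 cells. In intermediate cells, at nearly the same depth, 20 of 6211 cells (0.322%) had at least 3. With every cell thinned to 4000 UMIs, 31.0% of the PrECLCs (23.5 to 39.3%) and 0.0161% of the intermediate cells had at least 3. The rule was narrower than the markers. Across the BMP4- sample 142 cells had at least 3 markers, of which 113 were PrECLCs and the other 29 carried another annotation. Clustering of all BMP4- cells placed 138 of the 142 in 1 cluster that held no other cell, and the other 4 lay in clusters of other cells.

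The authors' annotation rests on the same counts, so the differences from the other BMP4- cells describe the cells and were not tested. UMIs were summed over the cells of a type and expressed as CPM, and a gene was called when log2(CPM + 1) differed by at least 1, which is 2-fold. Of 6865 genes with a mean of at least 10 CPM, 587 (8.55%) were higher and 347 (5.05%) were lower in PrECLCs than in the other BMP4- cells, with a median log2 difference of 0.06. A gene that passed this filter only through the group where it was high was bound to differ. This applied to many list members, among them the HOX and most fibroblast genes, so counts over the genes of a list that passed are descriptions. Of these genes, 332 were higher than in each of the 3 other types and 46 were lower than in each. The 25 genes furthest above the other cells ran from Spink1, with a log2 difference of 7.86, to Pdyn with 4.30, and Dpp4 lay just outside with 4.13. All 25 were at least 2-fold above each of the intermediate, pluripotent and endothelial cells.

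**Figure D1:**
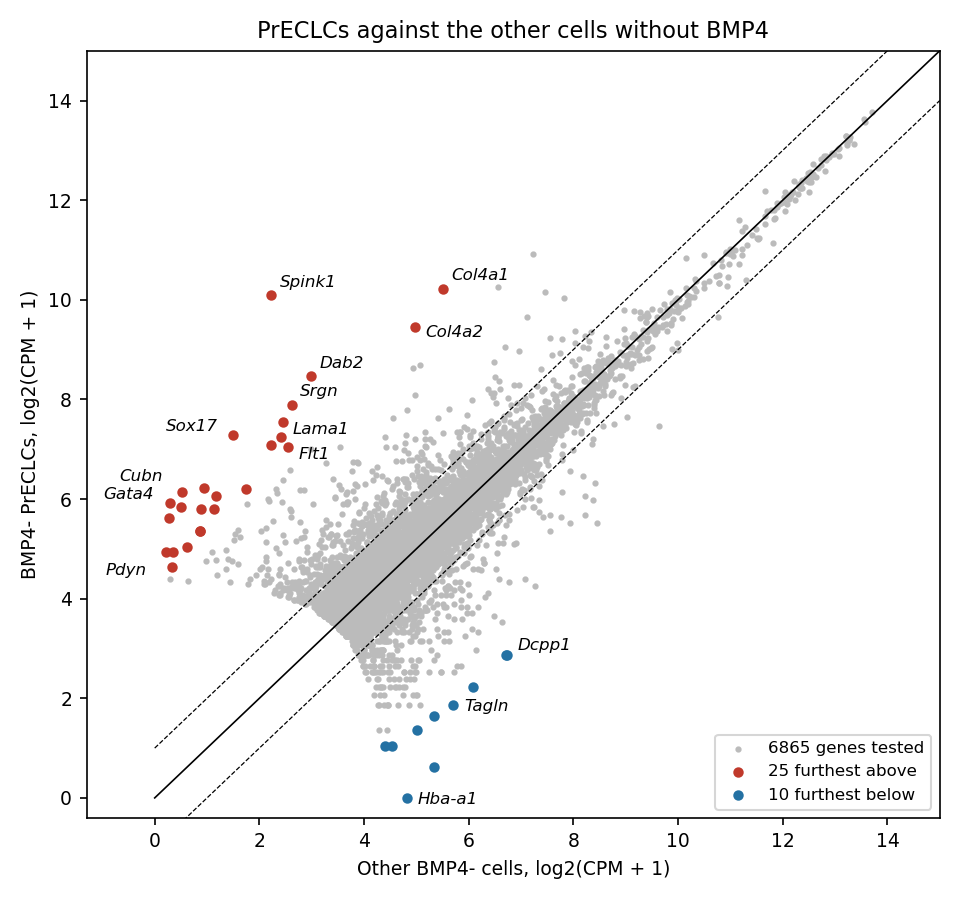
Level of each gene in BMP4- PrECLCs (vertical axis) against the other BMP4- cells (horizontal axis), both as log2(CPM + 1). Each point is 1 of the 6865 genes compared, and the dashed lines mark 2-fold differences. Spink1, Sox17 and Col4a1 lie far above the upper line, and Tagln and the Dcpp genes lie below the lower line.

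Each of the 5 markers was at a low level outside PrECLCs. Gata4, which encodes a zinc finger factor of endoderm and heart, was at 59.8 CPM (49.3 to 71.9) in PrECLCs and at 0.204, 0.337 and 0.119 CPM in intermediate, pluripotent and endothelial cells. After thinning, 18.3% of PrECLCs (12.3 to 25.7%) and 0.113% of intermediate cells held a Gata4 UMI. Sox17, a SOX factor of endoderm and of vessels, was at 155 CPM (138 to 174), beside 1.01 CPM in both intermediate and pluripotent cells and 12.6 CPM in endothelial cells. The markers differed in how far the other types lacked them. Pth1r, the receptor of parathyroid hormone and its related peptide, had the smallest log2 difference of the 5, at 3.50, with 130 CPM (114 to 147) and an intermediate cell level of 14.2 CPM. Its ligand gene Pthlh had 2 UMIs in the PrECLCs. Lama1, the laminin chain of the first embryonic basement membranes, was at 186 CPM (167 to 207) and at 3.57 to 4.73 CPM in the other types.

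Dab2, an adaptor that couples cargo receptors to clathrin, was at 353 CPM (327 to 381) in PrECLCs and at 9.07, 1.75 and 4.39 CPM in intermediate, pluripotent and endothelial cells. In the GENCODE annotation it lies on chromosome 15 of mm10 at positions 6299788 to 6440712 on the plus strand. Its promoter is shown because Gata4 and Gata6 were both among the enriched genes and GATA factors bind GATA motifs. The motif AGATAA was searched on both strands, with T also allowed as its first base and G as its last base, in the 250 bases before each RefSeq start (GRCm38.p6). The Dab2 window, chr15:6299539-6299788 on the plus strand, held 1 match, which begins 179 bases before the start and stands in capitals. The window was counted from the RefSeq transcript start at 6299789, which is 1 base after the GENCODE start.
Dab2 promoter: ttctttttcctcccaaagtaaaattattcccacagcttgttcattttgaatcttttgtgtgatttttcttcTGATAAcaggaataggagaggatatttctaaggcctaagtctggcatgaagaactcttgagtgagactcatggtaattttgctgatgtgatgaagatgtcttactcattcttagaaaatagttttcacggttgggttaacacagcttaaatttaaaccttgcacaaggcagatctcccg
Of the 25 leading genes, 17 had windows in the table, and 4 of their 21 windows (19%) held such a match, in Dab2, Habp2 and Pdyn. The share was 26.5% over all 32851 windows of the same length, so the leading genes did not hold these letters more often than other genes. A match describes the letters and shows no binding.

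Transcription factors of endoderm made up the next group. Of 12 listed, 6 reached the mean of 10 CPM, and the 6 were higher in PrECLCs (Gata4, Gata6, Sox17, Foxa2, Foxq1 and Pitx1). Each had passed through its level in PrECLCs, so the filter largely set this count. Their list had a median log2 difference of 2.79. Gata6, which acts before Gata4 in the lineage, was at 82.0 CPM (69.6 to 96.0) beside 4.45 CPM in the other cells. Foxq1, a forkhead factor of epithelia, was at 151 CPM (134 to 169) beside 4.35 CPM. Pitx1, a homeobox factor of hindlimb and pituitary, was at 74.1 CPM (62.3 to 87.4) beside 0.924 CPM. Other members lay nearer to the other cells. Foxa2, needed for node and gut, had 34.9 CPM (27 to 44.4) beside 5.48 CPM. Hnf4a, a factor of visceral endoderm and liver, had 6.88 CPM (3.66 to 11.8) from 13 UMIs. Sox7, which shares much of its role with Sox17, had 4.76 CPM beside 4.63 CPM in the other cells, and 54.9 CPM in endothelial cells.

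Genes of receptor-mediated uptake were among the most enriched. Of the 6 listed, 5 were at least 2-fold higher, beside 8.55% of all genes, and the list's median log2 difference was 4.46. Cubn, Amn, Lrp2 and Dab2 had passed the filter through their level in PrECLCs, and Dab2 is also 1 of the 5 markers. The filter thus largely set this count, which is a description. Cubn, which encodes cubilin and lies on chromosome 2 at positions 13276338 to 13491813, was at 69.8 CPM (58.4 to 82.8) and at 0.437 CPM in the other cells. Its membrane partner gene Amn (amnionless) was at 95.2 CPM (81.8 to 110) beside 4.96 CPM. Lrp2, which encodes megalin, was at 55.0 CPM (45 to 66.7) beside 0.858 CPM. The megalin chaperone gene Lrpap1 was at 397 CPM (369 to 427) beside 29.4 CPM. The exception was Folr1, a folate receptor gene, with 51.8 CPM (42.1 to 63.2) in PrECLCs. Pluripotent cells carried more of it, 87.4 CPM, and intermediate cells 6.29 CPM.

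Basement membrane genes formed a larger block, with 10 of 13 higher (8.55% of all genes were) and none lower (5.05% of all genes), at a median log2 difference of 2.83. Summed over the list, their total was 5415 CPM for PrECLCs and 752 CPM for intermediate cells. Col4a1 and Col4a2 encode the collagen IV chains that form the network of every basement membrane. Their RefSeq starts on chromosome 8 lie 21 bases apart on opposite strands, at 11312826 and 11312805. Col4a1 was at 1193 CPM (1144 to 1243) beside 44.3 CPM in the other cells, and Col4a2 was at 705 CPM (667 to 744) beside 30.4 CPM. Lama1, 1 of the 10 and also 1 of the 5 markers, had passed the filter through its level in PrECLCs. The laminin chains that pair with Lama1 were also enriched. Lamb1 was at 197 CPM (177 to 218) beside 22.3 CPM, and Lamc1 was at 150 CPM (133 to 168) beside 20.2 CPM. Sparc, a matrix protein that binds collagen IV, was at 1924 CPM (1862 to 1988) beside 149 CPM, and the perlecan gene Hspg2 was at 126 CPM (111 to 144) beside 26.3 CPM. Enzymes that modify collagen were part of the block, with log2 differences of 3.17 for P4ha2 (a prolyl hydroxylase), 2.45 for Plod2 (a lysyl hydroxylase) and 1.35 for the collagen chaperone Serpinh1. The 3 members short of 2-fold were the later laminin chain Lama5 (0.14) and the nidogens Nid1 (0.48) and Nid2 (0.37), which link laminin to collagen IV.

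**Figure D2:**
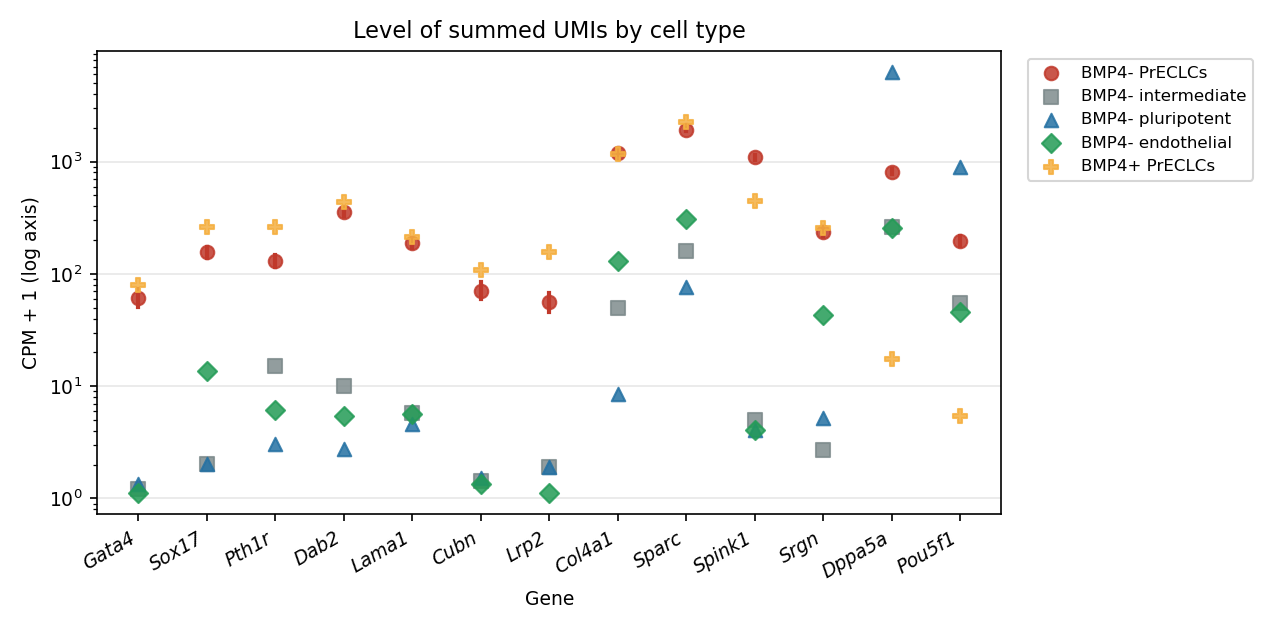
Levels of marker and leading genes (horizontal axis) in the 4 cell types of the BMP4- sample and in BMP4+ PrECLCs, as CPM + 1 on a log axis. Points are UMIs summed over the cells of a type and red bars the interval for BMP4- PrECLCs. The points of both PrECLC groups lie above those of the other types for Sox17, Dab2, Cubn and Col4a1, and the pluripotent cells are highest for Dppa5a and Pou5f1.

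Several leading genes encode secreted or surface proteins. Spink1, a secreted inhibitor of trypsin-like proteases known from pancreas and visceral endoderm, was at 1088 CPM (1041 to 1136) beside 3.68 CPM in the other cells. It was spread unevenly over the cells. Its level ran from 0 to 71.3 UMIs per 10000 with a median of 1.65, 43 cells held none, 47 held at least 10, and the 36 cells with the most held 85.2% of its 2056 UMIs. Ihh, a hedgehog ligand made by visceral endoderm, was at 48.1 CPM (38.8 to 59.1) beside 0.214 CPM. Pga5, a pepsinogen gene, was at 56.1 CPM (45.9 to 67.8) beside 0.412 CPM. Srgn, which encodes the proteoglycan serglycin, was at 236 CPM (215 to 259) beside 5.15 CPM, and at 42.4 CPM in endothelial cells. Flt1, a VEGF receptor gene also made by endothelium, was at 132 CPM (116 to 149) in PrECLCs and 39.7 CPM in endothelial cells.

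The remaining leading genes had log2 differences from 4.30 to 4.90. They were Hs3st1 (4.90), a heparan sulfate sulfotransferase, Cldn6 (4.85), a tight junction protein, Hkdc1 (4.73), a hexokinase-like enzyme, Nostrin (4.67), Habp2 (4.59), a plasma protease, Fxyd3 (4.50), a sodium pump regulator, Shtn1 (4.50), Cyp26a1 (4.46), which degrades retinoic acid, the adenosine receptor Adora1 (4.41) and the opioid precursor Pdyn (4.30). Pdyn was the rarest of the leading genes, with a UMI in 16.2% of the PrECLCs, and Col4a1 the most common, with 99.3%. S100g, a calcium-binding protein chosen after its values were seen, was enriched by 3.69 at 1218 CPM (1169 to 1269), but endothelial cells held a similar level of 1097 CPM. Of the other genes the study names, Cited1, a transcriptional coactivator, was at 414 CPM (385 to 444) beside 32.6 CPM, Klf4 at 76.2 CPM (64.2 to 89.7) beside 13.49 CPM, Eva1a at 24.9 CPM beside 2.01 CPM and Chst15, which sulfates chondroitin, at 20.1 CPM beside 2.55 CPM.

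The enrichment of the leading genes was also present with BMP4. In the BMP4+ sample, 24 of the 25 were at least 2-fold higher in PrECLCs than in the other cells, with a median log2 difference of 3.44. Of the 25, 22 reached a mean of 10 CPM there and 21 of these were higher, beside 8.05% of all 7984 genes at that level. The exception was Srgn (0.19), since the BMP4+ intermediate cells held 263 CPM of it, against 1.72 CPM in the BMP4- intermediate cells. The PrECLCs of both samples carry the same annotation, and a gene could reach the mean of 10 CPM through its PrECLC level alone. The filter thus set part of the count of 21, which is a description.

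The cells carried epithelial transcripts and few of the fibroblast they came from. All 8 epithelial genes above the mean of 10 CPM were higher, beside 8.55% of all genes, with a median log2 difference of 1.89 over the list of 10. Cldn6 and Cldn7 had passed the filter through their level in PrECLCs. Krt8, a keratin of simple epithelia, was at 106 CPM (92.1 to 122) beside 12.8 CPM, and Cldn7, a claudin, was at 72.5 CPM (60.8 to 85.7) beside 3.96 CPM. Cdh1, which encodes E-cadherin, was at 39.7 CPM (31.2 to 49.7) in PrECLCs, 26.4 CPM in pluripotent cells and 7.77 CPM in intermediate cells. Epcam, an epithelial adhesion gene, was equally high in pluripotent cells, at 161 CPM in both types. Of 15 fibroblast genes, 8 reached the mean of 10 CPM and 7 of these were lower, beside 5.05% of all genes. The list's median log2 difference was -2.26, and -2.10 with its 3 genes without UMIs placed at the limit that a count of 0 allows (3 UMIs, or 1.59 CPM). The sum of the fibroblast list was 76.7 CPM for PrECLCs, 440 CPM for intermediate cells, 117 CPM for endothelial cells and 66.5 CPM for pluripotent cells. All 3 of the other values were thus below that of intermediate cells. Twist1, a mesenchymal factor, was at 5.82 CPM (2.90 to 10.4) beside 31.6 CPM, and Col1a1 at 2.65 CPM (0.859 to 6.17) beside 28.1 CPM. Col1a2 was the exception, at 24.3 CPM (17.8 to 32.5) beside 23.7 CPM. The 6 HOX genes above 10 CPM were lower too, among them Hoxc9 with 4.76 CPM (2.18 to 9.04) beside 43.3 CPM. The HOX list summed to 56.1 CPM in PrECLCs, to 348 CPM in intermediate cells and to 45.8 CPM in pluripotent cells.

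Tagln, an actin-binding protein of smooth muscle and fibroblasts, was 1 of the 10 genes furthest below the other cells, at 2.65 CPM (0.859 to 6.17) beside 51.2 CPM. The limb and mesenchyme factor Prrx2 (log2 difference -3.69), Wnt10a (-3.49) and the carbonic anhydrase Car3 (-3.36) had their highest level in intermediate cells. Hba-a1, an alpha-globin gene, had no UMI in PrECLCs, and its level in the other cells came mainly from 352 CPM in endothelial cells. Svs5 (-3.64), a seminal vesicle gene, was likewise at 409 CPM in endothelial cells. Msmp and the near-identical Dcpp1, Dcpp2 and Dcpp3 completed the group. Reads of the Dcpp copies may be split between them by the counting, so their single values are uncertain.

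Genes that separate visceral from parietal endoderm were mixed. Of 10 parietal genes, 8 reached 10 CPM and 5 were higher, beside 8.55% of all genes, with none lower and a median of 1.74. Besides Pth1r and Srgn these were Fst, Tfpi and Krt19. Srgn had passed the filter through its level in PrECLCs, so the filter set part of the parietal count. Tfpi, an inhibitor of coagulation, was at 147 CPM (130 to 165) beside 30.4 CPM. Thbd, the thrombomodulin gene that marks parietal endoderm, had no UMI. Of 14 visceral genes, 6 reached 10 CPM and 5 were higher against the same share of all genes, namely Spink1, Ihh, Dkk1, Ttr and Rbp4. The filter fixed part of this count, since Spink1, Ihh, Dkk1 and Rbp4 passed it through their level in PrECLCs, and 4 of the 14 had no UMI. The median of the visceral list was lower than that of the parietal list, at 0.69, or 1.28 with its 4 genes without UMIs at the limit. Ttr, the transthyretin gene, was at 98.9 CPM (85.3 to 114) beside 18.1 CPM, and the WNT antagonist Dkk1 was at 35.4 CPM (27.5 to 45) beside 1.85 CPM. The serum protein genes Afp, Apoa1 and Apoc2 and the anterior marker Cer1 had no UMI. Markers of several other types had low list sums, with 21.7 CPM for trophoblast, 1.59 CPM for macrophage and 1.06 CPM for erythroid genes. Endothelial genes summed to 25.9 CPM, beside 20.5 CPM in intermediate and 517 CPM in endothelial cells, and definitive endoderm genes to 52.4 CPM, beside 55.8 CPM in intermediate cells. Mesenchymal genes summed to 599.9 CPM, beside 728.5 CPM in intermediate cells. Pluripotency genes were not scarce, with 1244 CPM in PrECLCs, 477 CPM in intermediate and 8513 CPM in pluripotent cells.

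Signalling genes differed in both directions. Pdgfra, the PDGF receptor gene that marks primitive endoderm, was at 73.0 CPM (61.3 to 86.3) beside 10.8 CPM, and its ligand gene Pdgfa was at 16.9 CPM (11.6 to 23.9) beside 57.9 CPM. Fgfr2, a receptor through which FGF4 acts on the lineage, was at 18.0 CPM (12.5 to 25.1) beside 4.13 CPM, whereas Fgfr1 was at 14.8 CPM (9.84 to 21.4) beside 37.9 CPM. Of 5 BMP target genes above 10 CPM, 2 were lower (5.05% of all genes were lower), the helix-loop-helix inhibitor Id3 (147 CPM beside 331 CPM) and the receptor decoy Bambi (12.2 CPM beside 65.9 CPM). The ligand gene Bmp4 itself was at 8.99 CPM (5.24 to 14.4) beside 44.9 CPM. Of 5 WNT target genes, 4 were lower, against the same share of all genes, and Nkd1, a feedback inhibitor, was at 25.4 CPM (18.7 to 33.7) beside 77.3 CPM. Of the delivered factors, Sall4 was at 86.8 CPM (74.0 to 101) beside 31.5 CPM, Esrrb at 11.6 CPM beside 14.6 CPM, Jdp2 at 3.17 CPM, and Glis1 had no UMI. Viral and endogenous transcripts were not told apart here. Of 11 subunit genes of the NuRD complex, a chromatin remodeler with deacetylase activity, none was lower and 1 was higher, a share near the 8.55% of all genes. It was Rbbp7 (313 CPM beside 124 CPM), and the list's median was -0.13.

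None of 15 S phase genes and none of 15 G2/M genes differed by 2-fold from the other BMP4- cells (medians 0.14 and -0.01). Of all genes, 8.55% were higher and 5.05% lower. The cell cycle inhibitor genes Cdkn1a, at 78.8 CPM (66.7 to 92.5) beside 341 CPM, and Cdkn1c, at 66.1 CPM (55.0 to 78.8) beside 298 CPM, were lower. Of 5 p53 and senescence genes above 10 CPM, Cdkn1a was the 1 that was lower, beside 5.05% of all genes.

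The 142 cells varied among themselves. Summed over the 5 markers, a cell held 0 to 24.4 UMIs per 10000 with a median of 8.65. The basement membrane list ran from 1.26 to 135 with a median of 53, beside a median of 6.07 in intermediate cells. Across the 142 cells, which share 1 library, the marker sum went with the endocytic sum (Pearson's r = 0.61, with Dab2 in both lists). Gata4 and Sox17 showed almost no relation (r = 0.10), and in sparse counts such a value is no finding.

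Pluripotency genes split the cells further. Over the 20 listed genes, 14 reached 10 CPM and 10 were lower in PrECLCs than in the other cells together, which include the pluripotent cells, beside 5.05% of all genes. Lin28a, an RNA-binding protein, at 93.6 CPM (80.4 to 108) beside 16.7 CPM, and Klf5, at 162 CPM (145 to 182) beside 56 CPM, were higher. With cells thinned to 4000 UMIs, a limit was set at the 99th percentile of intermediate cells, which was 7 UMIs of the list. Above it lay 23 PrECLCs (16.2%, 10.6 to 23.3%), 0.708% of intermediate cells, 1.18% of endothelial cells, 97.0% of pluripotent cells and 0.801% of BMP4+ PrECLCs. The limit cuts a range rather than a type, and 16 PrECLCs lay within 1 UMI of it. Dppa5a, an RNA-binding protein of pluripotent cells, held 65.0% of the list's UMIs in PrECLCs. The 23 cells had a median of 14561 UMIs and the other 119 cells had 11208.

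The genes compared between these 2 sets of PrECLCs were picked after their values were seen, and the differences were not tested. Dppa5a itself was at 3002 CPM in the 23 cells and 328 CPM in the 119, but the list had chosen them. Pou5f1, which encodes OCT4 and was not in the list, was at 544 CPM (469 to 629) beside 119 CPM (103 to 138). The list had chosen its other members in the same way, so their levels are given without weight. Zfp42 was at 76.5 CPM beside 14.2 CPM, Utf1 at 47.1 CPM beside 5.805 CPM and Tfcp2l1 at 44.1 CPM beside 12.3 CPM, whereas Klf2 was at 5.89 CPM beside 18.7 CPM and Lin28a at 88.3 CPM beside 94.8 CPM. For Nanog and Sox2 the intervals covered the level of the 119. Nanog had 1 UMI in the 23 cells, or 2.94 CPM (0.0745 to 16.4), beside 6.45 CPM, whereas pluripotent cells held 99.9 CPM. Sox2 was at 20.6 CPM (8.28 to 42.4) beside 18.7 CPM, and at 217 CPM in pluripotent cells. The upper bounds of both intervals lay below the levels of pluripotent cells.

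The 23 cells held the PrE markers and had at least 2-fold more of 4 of the 6 uptake genes, beside 7.98% of 6828 genes that were as much higher in this split. At least 3 of the 5 markers were detected in 21 of the 23 (91.3%) and in 92 of the 119 (77.3%). Gata4 was at 79.5 CPM beside 55.5 CPM, and Sox17 at 127 CPM beside 161 CPM. Lama1 was at 344 CPM (285 to 413) beside 152 CPM, and Pth1r at 109 CPM beside 135 CPM. The basement membrane list had a median of 64.5 UMIs per 10000 in the 23 cells and 47.6 in the 119. Cubn was at 206 CPM in the 23 cells and 40.0 CPM in the 119. Amn was at 268 CPM beside 57.4 CPM, and Folr1 at 162 CPM beside 27.7 CPM. Lrpap1 was at 698 CPM beside 332 CPM. The other 2 were not higher, with Lrp2 at 50.03 CPM (29.1 to 80.1) beside 56.1 CPM and Dab2 at 291 CPM (237 to 355) beside 367 CPM. Spink1 went the other way, at 41.2 CPM (22.5 to 69.1) beside 1317 CPM (1260 to 1375). After thinning, 0 of the 23 cells and 76 of the 119 (63.9%) held a Spink1 UMI, while at full depth 13 of the 23 and 30 of the 119 held none. Ttr, at 5.89 CPM beside 119 CPM, and Pitx1, at 5.89 CPM beside 89.0 CPM, were also lower. The parts of depth, doublets and free RNA in this split were not tested.

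**Figure D3:**
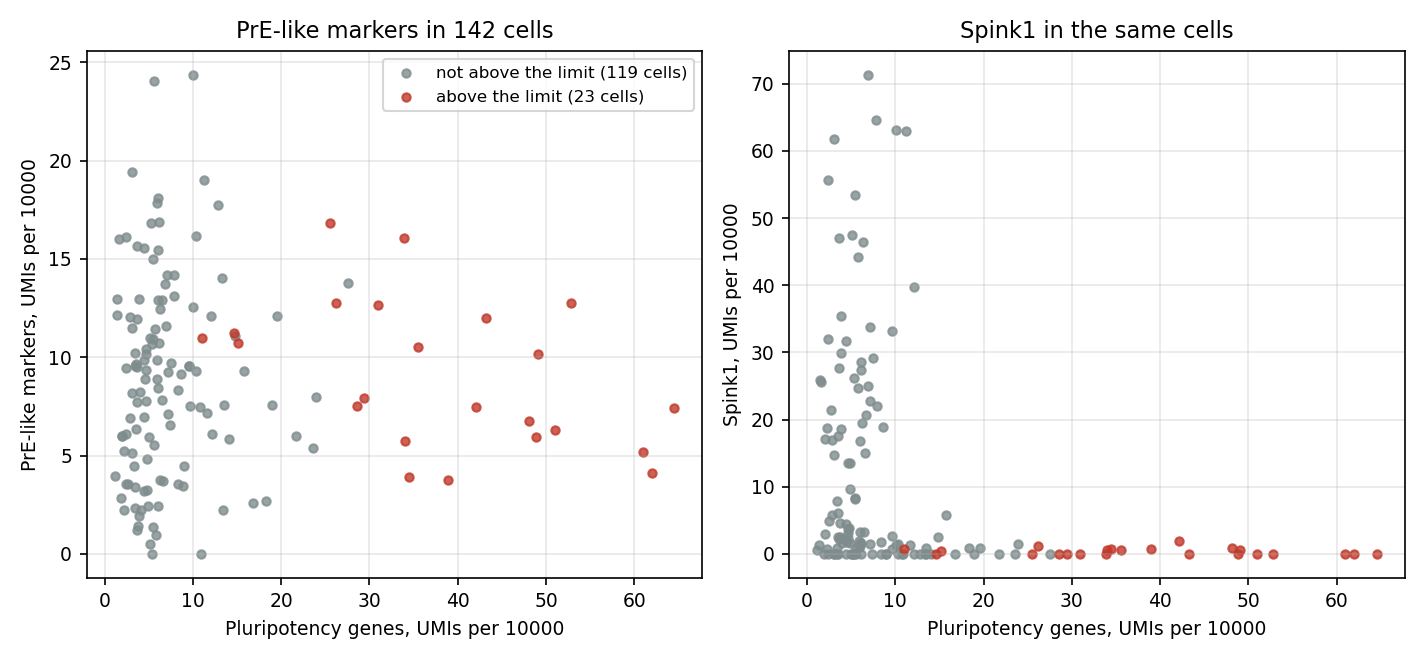
Sum of the PrE markers (left) and Spink1 (right) against the sum of the pluripotency genes, all as UMIs per 10000 UMIs of the cell. Each point is 1 of 142 cells, and the 23 cells above the pluripotency limit are red. The red cells have little Spink1, at most 1.87 per 10000, but PrE marker sums within the range of the other cells.

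MEFs came from embryos of both sexes. After thinning, a UMI of a Y-linked gene was found in 19.7% of PrECLCs (13.52 to 27.2%) and 16.5% of intermediate cells. The X inactivation RNA Xist was found in 59.2% (50.6 to 67.3%) and 48.3% (47.1 to 49.6%), and in 11% of the pluripotent cells. The intervals treat cells of 1 culture as independent, and how many MEFs the PrECLCs descend from was not examined. Differences between the types were therefore not tested. UMIs of both were found in 6 PrECLCs (4.23%), and in 1.80% of intermediate, 1.15% of pluripotent and 0.789% of endothelial cells. The share was 2.36% in BMP4+ PrECLCs. Whether doublets contribute to these shares was not tested.

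BMP4- PrECLCs were then set against the 2372 BMP4+ PrECLCs. Culture, library and BMP4 cannot be told apart here, since each condition was 1 library, so the intermediate and endothelial cells of the same samples are given beside. Of 7428 genes, 232 (3.12%) were higher and 1856 (25%) lower without BMP4, with a median log2 difference of -0.55. The same genes had a median of -0.45 in intermediate cells and -0.50 in endothelial cells. With the median set to 0, 631 genes were higher and 586 lower. Of the called genes, 97 of the 232 and 651 of the 1856 differed in the same direction in both other types. That held for each of the 10 genes with the largest positive difference (mt-Co3, AY036118, Rpl27-ps3, Sssca1, Ptp4a1, Dppa5a, Pou5f1, Atp5g2, Rbm42 and mt-Co2) and for 5 of the 10 with the largest negative one (Atp6v0c, Iapp, Hist1h1b, Spink8 and Ldoc1). Atp6v0c, a proton pump subunit gene, was at 1.06 CPM (0.128 to 3.82) without and 1172 CPM with BMP4, and at 2.06 and 950 CPM in intermediate cells.

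The identity genes were compared first. None of the 5 markers, which underlie the label in both samples, passed 2-fold, whereas 3.12% of all genes were higher and 25% lower. The list median was -0.38, beside -0.55 for all genes. After thinning, at least 3 of the 5 markers were found in 31.0% of BMP4- PrECLCs (23.5 to 39.3%) and in 53.4% of BMP4+ PrECLCs (51.3 to 55.4%). Ribosomal protein genes took a median of 44.1% and 24.1% of their UMIs. Equal totals thus left fewer UMIs for other genes in BMP4- PrECLCs, and the part of this in the difference was not tested. Of 9 endoderm transcription factors with a mean of at least 10 CPM, 3 were lower without BMP4, among them Sox7 and Pitx1, and none was higher. These counts are near the shares of all genes, 25% lower and 3.12% higher. The list median was -0.60, near the -0.55 of all genes. Gata4 was at 59.8 CPM without and 78.3 CPM with BMP4, and Gata6 at 82.0 and 74.4 CPM. Of the 13 basement membrane genes, 1 was higher and none lower, beside 3.12% and 25% of all genes, with a median of 0.09, whereas the same list had a median of -1.11 in intermediate cells. The one was Hspg2, at 126 CPM (111 to 144) beside 52.3 CPM. Col4a1 was at 1193 and 1171 CPM. Of the 6 uptake genes, 2 were lower, Lrp2 (55.0 CPM beside 156 CPM) and Amn (95.2 CPM beside 208 CPM), a share near the 25% of all genes. Other enriched genes were lower too. Pitx1 was at 74.1 CPM beside 442 CPM, Cited1 at 414 CPM beside 1123 CPM, the activin antagonist Fst at 31.7 CPM beside 217 CPM and Rbp4, a retinol carrier, at 22.7 CPM beside 107 CPM. Spink1 was higher, at 1088 CPM beside 446 CPM.

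All 6 BMP target genes were lower without BMP4, with a median of -2.16 in PrECLCs and -2.01 in intermediate cells. Of all genes 25% were lower, with a median of -0.55. Id1, a direct target, was at 117 CPM (102 to 133) beside 469 CPM. The inhibitory SMAD genes Smad6 and Smad7 were at 4.76 CPM (2.18 to 9.04) beside 43.4 CPM and at 15.9 CPM (10.7 to 22.7) beside 89.4 CPM. Cell cycle genes are given for both types, whose difference was not tested. In PrECLCs 9 of 15 S phase and 7 of 15 G2/M genes were lower without BMP4, with medians of -1.05 and -0.91, read against the same share and median of all genes. In intermediate cells the medians were 0.28 and 0.67. Mki67, a proliferation marker, was at 39.7 CPM (31.2 to 49.7) without and 187 CPM with BMP4 in PrECLCs, and at 34.8 and 61.4 CPM in intermediate cells. Imprinted growth genes were lower for 8 of 11, beside 25% of all genes, with a median of -1.49 in PrECLCs and of -1.21 in intermediate cells. The lower level was thus present in both types, and Phlda2 was a member that differed between them. Phlda2, a placental growth inhibitor, was at 3.17 CPM (1.16 to 6.91) beside 144 CPM, whereas intermediate cells held 35.0 and 28.0 CPM.

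Among the 10 largest negative differences, 5 were not shared by both other types. Besides Phlda2 and Dcpp2, they were Ins2, Ppp1r17 and Pnoc. Ins2, an insulin gene, was at 18.0 CPM (12.5 to 25.1) beside 1208 CPM, and intermediate cells held 175 and 10863 CPM. Ppp1r17, a phosphatase inhibitor, had 1 UMI (0.529 CPM, 0.0134 to 2.95) beside 82.0 CPM, and was at 0 and 0.782 CPM in intermediate cells. Some genes were higher without BMP4 in PrECLCs and not in both other types, and they were chosen after their values were seen. BC048679 was at 40.7 CPM (32.1 to 50.9) beside 2.10 CPM, with 150 CPM in the 23 cells above the pluripotency limit and 16.8 CPM in the 119 others. Pdyn was at 23.8 CPM (17.4 to 31.9) beside 1.29 CPM. The connexin gene Gjb5 was at 23.8 CPM (17.4 to 31.9) beside 3.11 CPM. Its level was higher in the 23 cells, at 115 CPM, than in the 119 others, at 3.87 CPM.

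**Figure D4:**
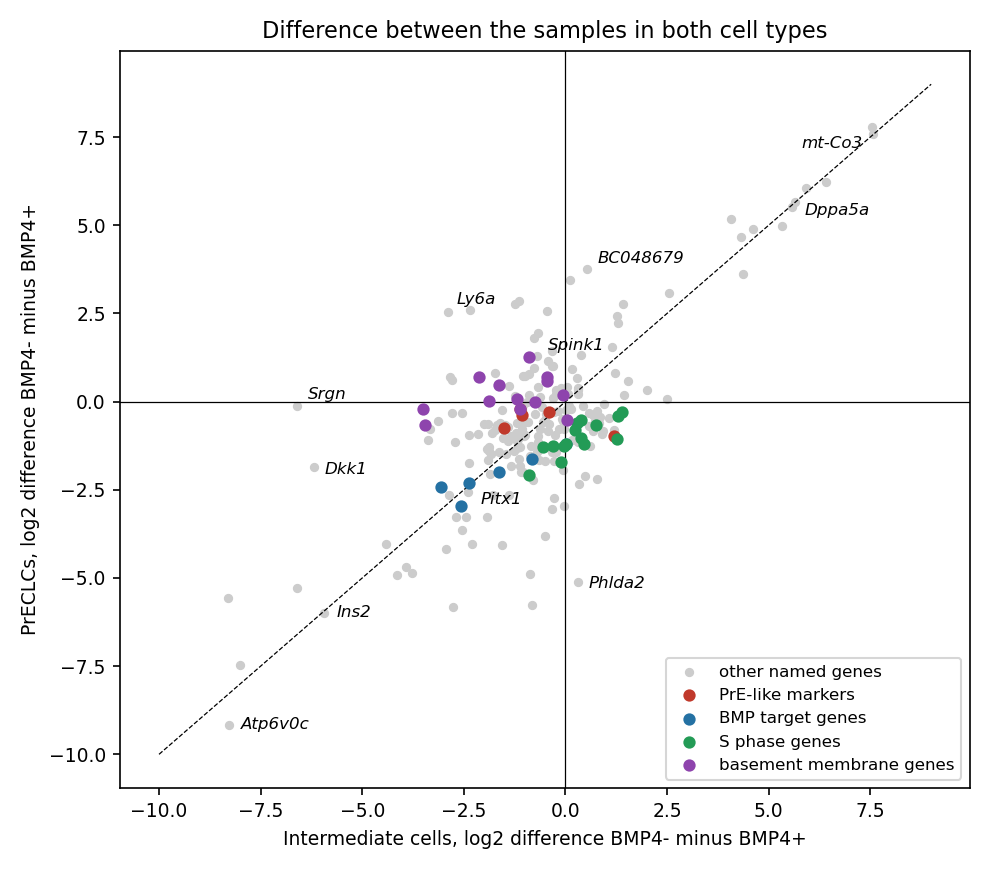
Difference between the samples without and with BMP4, as log2 of (CPM + 1), in PrECLCs (vertical axis) and in intermediate cells (horizontal axis). Each point is a named gene or list member, with 4 lists in colour and the diagonal dashed. mt-Co3 and Atp6v0c lie near the diagonal at 7.78 and -9.16 in PrECLCs, whereas Phlda2, with -5.12 in PrECLCs and 0.31 in intermediate cells, lies off it.

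Over 7694 genes, the summed profile of BMP4- PrECLCs was as close to other cells of its own library as to BMP4+ PrECLCs. Pearson's r of log2(CPM + 1) was 0.879 with BMP4- endothelial, 0.876 with BMP4- intermediate and 0.849 with BMP4- pluripotent cells. It was 0.859 with BMP4+ PrECLCs and 0.770 to 0.797 with the other BMP4+ cells. The genes are not independent replicates, and cells of a sample share their library. Of the 15 nearest neighbours of each cell among all cells of both samples, 90.1% were BMP4- PrECLCs, 7.42% BMP4- intermediate cells and 1.78% BMP4+ PrECLCs, which were 11.8% of all cells. The share of BMP4+ PrECLCs was 3.29% with 30 neighbours and 0.798% with each gene centred within its sample.

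Bulk RNA-seq of other JGES cultures gave the time course of these genes, as FPKM values of 1 library per time point whose depth is unknown. In bulk RNA, fewer cells of a type and less RNA per cell cannot be told apart. Day 0 was not free of the delivered factors, with Sall4, Jdp2 and Esrrb at 650, 375 and 240 FPKM and Glis1 at 0.450 FPKM. Of the 25 leading genes, 23 reached 1 FPKM at day 0 or day 7 without BMP4. Of these, 16 were at least 2-fold higher at day 7 on the log2(FPKM + 1) scale, beside 22.2% of all 15004 genes at that level, and 3 were lower, near the 10.4% of all genes. The median log2 change over the 25 was 1.48 (-1.96 to 4.32). With BMP4 it was 2.64.

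The 5 markers differed in their time course. Gata4 was at 2.17 FPKM at day 0 and at 0.963, 0.559, 3.23 and 10.3 FPKM at days 1, 3, 5 and 7 without BMP4. It reached 20.7 FPKM at day 7 with BMP4. Sox17 was listed at 0 at days 0 and 1 and stood at 0.128, 1.87 and 3.11 FPKM at days 3, 5 and 7, beside 12.6 FPKM at day 7 with BMP4. Both were thus higher at day 7 than at day 3. Lama1 was at 0.556 FPKM at day 0 and at 1.48, 3.83, 12.9 and 30.1 FPKM afterwards, and at 23.1 FPKM at day 7 with BMP4. Pth1r was at 1.58 FPKM at day 0 and again at day 5, with 0.204 and 0.434 FPKM at days 1 and 3, and stood at 7.78 FPKM at day 7, beside 18.4 FPKM with BMP4. Dab2 differed in that the day 0 library already held 25.3 FPKM. It was at 4.85, 2.62, 7.34 and 9.82 FPKM at days 1, 3, 5 and 7 and at 72.6 FPKM at day 7 with BMP4. Lama1 was the marker whose bulk level at day 7 was not below that with BMP4.

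Several other leading genes were lower at day 7 without than with BMP4. Spink1 was listed at 0 at days 0 and 1 and was at 0.819, 0.746 and 2.71 FPKM at days 3, 5 and 7, beside 24.1 FPKM at day 7 with BMP4. Cldn6 was at 17.3 FPKM at day 7 without and 85.5 FPKM with BMP4. The 3 genes at least 2-fold lower at day 7 than at day 0 were Dab2, Pitx1 and Flt1. Of 24 leading genes that reached 1 FPKM in the day 7 libraries, 13 were at least 2-fold lower without BMP4, beside 10.3% of 15347 genes, and none was higher, beside 13.8%.

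**Figure D5:**
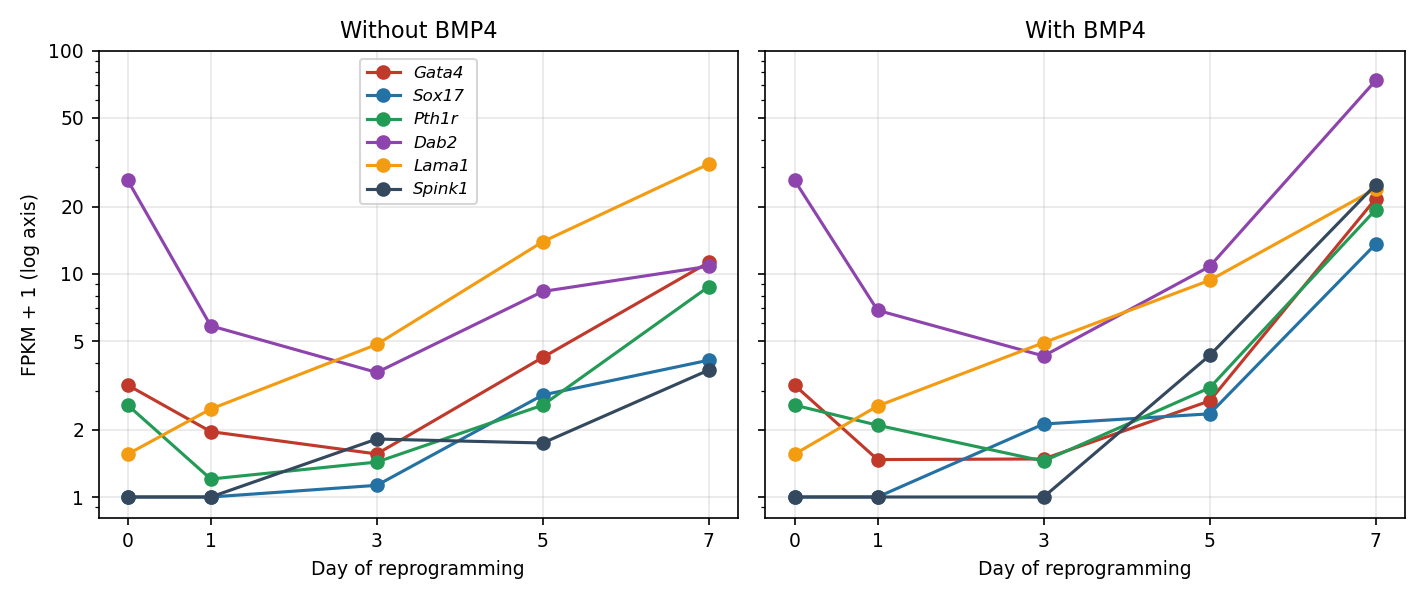
Bulk level of the 5 markers and Spink1 at day 0 and days 1, 3, 5 and 7 without (left) and with BMP4 (right), as FPKM + 1 on a log axis with 1 library per point. Gata4, Sox17 and Lama1 are higher at day 7 than at day 3 in both series, and Dab2 starts high, at 25.3 FPKM.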

How the data were processed

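scRNA-seq of JGES cells at day 7 with and without BMP4 and bulk RNA-seq of JGES cells of days 0 to 7 were used, with 1 sample per condition. For scRNA-seq the authors mapped reads to mm10 with STAR and deposited raw UMI counts of each gene in each cell, with cell annotations. The table holds 20695 genes and 30769 cells, of which 10749 columns belong to no sample used here. For bulk RNA-seq the authors deposited FPKM values. The submitters' processing notes name Trim Galore 0.6.4, HISAT2 2.2.1, StringTie 2.2.1 and Scanpy. ATAC-seq, CUT&Tag and the libraries of other factor sets were not used here.

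UMIs were summed per annotation and sample and scaled to CPM. Levels were compared as log2(CPM + 1) over genes with a mean of at least 10 CPM in the 2 groups, and a difference of 1 (2-fold) was called. Intervals (95%) are exact Poisson for levels and Clopper-Pearson for shares. Cells were thinned to 4000 UMIs, a depth every cell reached. Sums over gene lists are given per 10000 UMIs. Clusters (leidenalg 0.10.2) and 15 neighbours came from log counts. FPKM were compared with a pseudocount of 1. Python 3.11.15, numpy 2.4.6, pandas 2.3.3 and scipy 1.17.1 were used. The comparison was also run on simulated Poisson counts with changes larger than 2-fold and no spread between cells. That run checks the computation and does not test the calls made here.

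The members, gene lists and 5 markers were chosen with earlier results of these data known. Named genes were the 25 furthest above and the 10 furthest below the other BMP4- cells, the 10 largest differences in each direction between BMP4- and BMP4+ PrECLCs, members of the lists, and Cited1, Eva1a, Chst15 and Klf4. Others are said to be chosen after their values were seen, and 1 gene is not reported here. Alternatives tried were other filters, pseudocounts and scalings, and their effect is given at the end.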

Additional observations from a re-analysis of the deposited data

Results flagged for a closer look

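Among the genes reported here, 3 differed between the samples in opposite directions in PrECLCs and in intermediate cells, by at least 2-fold in each. As the log2 difference of BMP4- minus BMP4+, Gjb5 was at 2.59 in PrECLCs and -2.35 in intermediate cells, and Ly6a, a GPI-anchored surface antigen, at 2.54 and -2.88. Uhrf1, which recruits DNMT1 to replicating DNA, went the other way, at -1.05 and 1.27. Each condition was 1 sample, so the difference between the cell types was not tested. In the 23 BMP4- PrECLCs above the pluripotency limit Ly6a was at 256 CPM, and in the 119 others at 15.5 CPM.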

How the results depend on the processing

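No paired analysis was possible because each condition has 1 sample. The alternatives that removed ribosomal and mitochondrial genes or the difference shared by other cell types were chosen after seeing the data. Without the ribosomal protein and mitochondrial genes, 641 genes were lower than in the other BMP4- cells, and 728 were higher and 892 lower than in BMP4+ PrECLCs. With a mean of at least 30 CPM, 273 genes were higher and 109 lower than in the other BMP4- cells, and 124 higher and 1105 lower than in BMP4+ PrECLCs. With no filter these counts were 1036, 1744, 745 and 2871. At an equal median of the 2 samples, 631 genes were higher and 586 lower. Leaving out genes that differed the same way in intermediate and endothelial cells left 135 higher and 1205 lower, and subtracting the difference of those cells left 254 lower. After that subtraction the log2 difference turned to -1.03 for Dppa5a, 0.78 for Spink8, -0.24 for Atp5g2 and -0.22 for Rpl27-ps3. At the 95th percentile 24.6% of PrECLCs lay above the pluripotency limit, and without thinning 35.2% held a Y-linked UMI. The median bulk change was 3.31 with a pseudocount of 0.1, 1.66 for genes of at least 1 FPKM and 1.57 for the leading 50 genes. The cause of these shifts was not tested. Alternatives against the other BMP4- cells were run for 36 genes, the 25 leading genes, the 10 furthest below and Pth1r, and changed no sign among them. The other genes named in that comparison were not recomputed. With 142 cells, a gene with no UMI may be at up to 1.59 CPM, and 1 sample per condition limits each comparison between samples to these 2 cultures.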

Other observations

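Some gene groups of the BMP4- PrECLCs stand outside the comparisons above. Dnmt3b, a de novo DNA methyltransferase, was at 62.4 CPM (51.7 to 74.8) beside 20.2 CPM in the other BMP4- cells and 12.4 CPM in intermediate cells. Kit, a receptor of germ cells and blood progenitors, was at 23.8 CPM (17.4 to 31.9) beside 10.1 CPM. Of the imprinted growth genes, 5 of 11 were lower than in the other BMP4- cells, beside 5.05% of all genes, the furthest being Dlk1, a NOTCH-like ligand of progenitors, at 6.88 CPM (3.66 to 11.8) beside 69.9 CPM, while the maternally expressed noncoding RNA Meg3 of the same imprinted cluster was at 682 CPM (645 to 720) beside 502 CPM. Xist was at 650 CPM (614 to 687) in PrECLCs, 414 CPM in intermediate, 360 CPM in endothelial and 48.9 CPM in pluripotent cells.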
